A study of Mus musculus with 6 samples.

Results

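The genes described are 10 members of the negative limb and the output arm of the circadian clock: the period genes Per1, Per2 and Per3, the nuclear receptor genes Nr1d1 and Nr1d2, the transcription factor genes Dbp, Tef and Hlf, and the repressor genes Ciart and Bhlhe41. They were found by gene name, and each of the 10 names matched 1 of the 21700 genes of the deposited table. The names were chosen by their FPKM values in these 6 libraries, with earlier results known, so the values of the members are given as a description, and no count of calls among them is read as support. RNA was measured in biliary epithelial cells, the cells that line the bile ducts, sorted by flow cytometry from livers of wild-type (WT) female C57BL/6 mice. There were 3 libraries from non-pregnant mice, called NP1, NP2 and NP3 here, and 3 from mice pregnant at dpc8 (8 days post coitum), called P1, P2 and P3. The labels name no other allele or treatment in either group. The sources used here do not give the age of the mice, the hour at which livers were taken or the antibodies used for sorting. Whether each library is a different animal is not stated, so the spread and the p-values measure differences between libraries that may be technical.

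In the circadian clock of mammals the transcription factors CLOCK and BMAL1 (encoded by Arntl) bind E-boxes and switch on the genes of their own repressors. The period proteins pair with cryptochromes and shut CLOCK and BMAL1 down, CIART and BHLHE41 repress them as well, and the nuclear receptors REV-ERB alpha (Nr1d1) and REV-ERB beta (Nr1d2) repress Arntl itself. DBP, TEF and HLF are the proline and acidic amino acid-rich (PAR) basic leucine zipper factors, which carry the rhythm to output genes by binding D-boxes. In liver the members peak at other hours than Arntl and its partners Npas2, Clock, Cry1 and Nfil3.

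Some promoters of the members hold elements through which the loop is known to run, and the stretches with a match are shown for that reason. RefSeq promoters (GRCm38.p6, the same build as mm10), 250 bases before to 50 after a gene start, were found for 9 of the 10 members. Per2 had no entry. The letters searched on both strands were CACGTG for the E-box, CACGTT for the weaker E'-box, TTATGTAA or TTACGTAA for the D-box, AGGTCA or GGGTCA preceded by AANT for the element of the REV-ERBs and RORs, and TGACGTCA for the cyclic AMP response element. No member held more than 1 kind of match, so none of the matches overlap another motif. An E-box was found in 4 of the 9 members, Per1, Tef, Ciart and Bhlhe41, against 8.09% of the 27025 gene symbols of the promoter table. Ciart had 3 E-boxes, as did 0.0883% of the 32851 promoters (3 or more). Per3 had 2 D-boxes in its promoter, as did 0.0244% of all promoters (2 or more), and a D-box of any number was found in 1.06%. Nr1d1 had an E'-box and Hlf a cyclic AMP response element, found in 4.68% and 1.79% of promoters. The windows of Dbp and Nr1d2 held none of these letters. The stretches follow 5′ to 3′ on the strand of the gene, with the matched letters in capitals and 20 bases on either side, or up to the gene start in Hlf. They lie at chr3:95882319-95882364 and chr3:95882247-95882306 (Ciart, minus strand), chr4:151044796-151044890 (Per3, minus), chr11:69098763-69098808 (Per1, plus, the upstream of its 2 entries in the promoter table, inside the GENCODE gene), chr15:81802526-81802571 and chr15:81811256-81811301 (Tef, plus, 1 for each of its 2 entries), chr6:145865548-145865593 (Bhlhe41, minus), chr11:98775380-98775425 (Nr1d1, minus) and chr11:90390918-90390946 (Hlf, minus).
Ciart, upstream E-box: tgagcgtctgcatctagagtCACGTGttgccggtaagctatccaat
Ciart, E-box pair: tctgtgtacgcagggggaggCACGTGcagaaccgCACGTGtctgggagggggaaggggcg
Per3, D-box pair: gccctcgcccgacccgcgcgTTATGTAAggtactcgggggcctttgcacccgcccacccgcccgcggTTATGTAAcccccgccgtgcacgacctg
Per1, E-box: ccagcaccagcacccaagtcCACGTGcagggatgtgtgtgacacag
Tef, upstream entry, E-box: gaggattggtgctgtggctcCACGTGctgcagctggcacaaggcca
Tef, downstream entry, E-box: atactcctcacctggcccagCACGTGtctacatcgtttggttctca
Bhlhe41, E-box: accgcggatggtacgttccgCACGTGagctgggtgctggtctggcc
Nr1d1, E'-box: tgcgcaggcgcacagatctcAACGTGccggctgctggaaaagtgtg
Hlf, cyclic AMP response element: tcggcgcgcggtgcgggcccTGACGTCAc

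**Figure D1:**
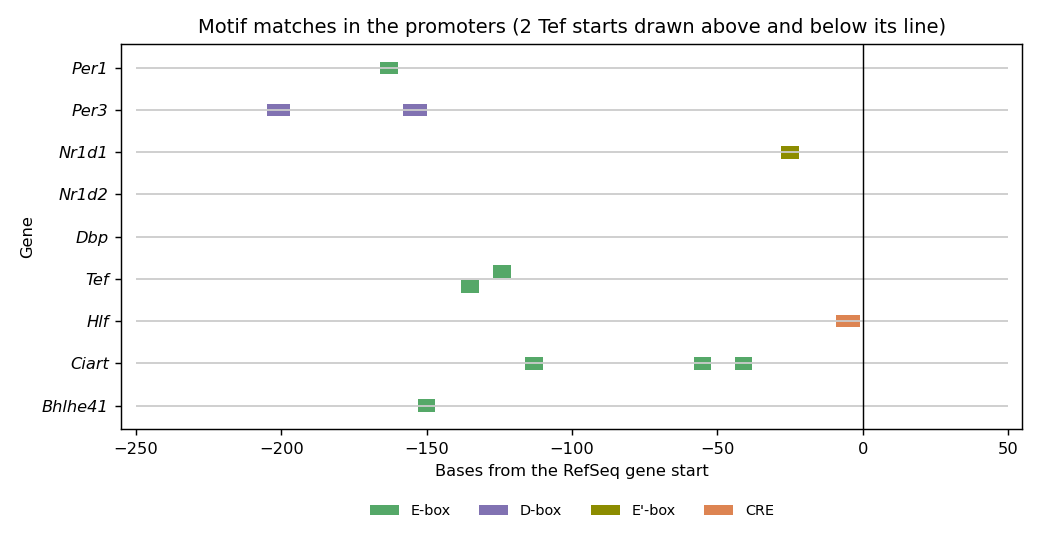
Motif matches (coloured boxes, drawn to scale) in the promoters of 9 members, by distance in bases from the RefSeq gene start. Ciart has 3 E-boxes, Per3 has 2 D-boxes, and the lines of Dbp and Nr1d2 are empty.

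The members were all transcribed in these cells, over a wide range of levels. On the FPKM scale (fragments per kilobase of exon, scaled to library depth), which allows levels of different genes to be compared, Nr1d1 stood highest with a mean of 148.6 over the 6 libraries. Dbp (57.7) and Per1 (56.8) came next, then Tef (32.2), Nr1d2 (31.1) and Per2 (27.1), then Per3 (6.59), Hlf (4.30), Ciart (2.75) and Bhlhe41 (0.860). Neighbours in this order overlapped in their range over the 6 libraries, except that Nr1d1 lay above Dbp, Per1 above Tef and Per2 above Per3 in every library. Bhlhe41 was the only member with a mean under 1 FPKM and so was left out of the test across genes, while Ciart was the lowest of the 9 above it. The libraries held between 25047887 and 35083752 fragments recovered from the FPKM values, and Bhlhe41 had between 80 and 277 of them. All 6 libraries carried the biliary markers Krt19 (220 to 386 FPKM), Epcam (182 to 195 FPKM) and Sox9 (276 to 332 FPKM).

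Among the period genes, Per2 and Per3 varied together. Per1 shared their highest library, P3, and their lowest, NP3, but was not high in NP2 as they were. Per2 (chromosome 1, 91415982 to 91459324 in mm10) stood at 19.3 FPKM in NP1, 33.3 in NP2 and 13.7 in NP3, against 24.5 in P1, 26.1 in P2 and 45.6 in P3. Per3, the member with the pair of D-boxes (chromosome 4, 151003652 to 151044665), stood at 4.60 FPKM in NP1, 9.14 in NP2 and 3.003 in NP3, against 5.32 in P1, 6.43 in P2 and 11.04 in P3. In both genes P3 was highest, NP2 second and NP3 lowest, so the groups overlapped. The group means were 22.1 ± 10.1 and 32.1 ± 11.7 FPKM for Per2 and 5.58 ± 3.18 and 7.60 ± 3.03 FPKM for Per3 (SD, n = 3 each). On the log2(FPKM + 1) scale the difference, pregnant minus non-pregnant, was 0.55 ± 0.33 for Per2 and 0.44 ± 0.35 for Per3 (SE). Leaving out NP3 gave 0.27 for Per2 and 0.135 for Per3, leaving out P3 gave 0.28 and 0.17, and leaving out NP2 gave 0.88 and 0.81.

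Per1, the period gene that also answers quickly to outside signals, was the only member whose groups did not overlap. It stood at 55.3 FPKM in NP1, 48.9 in NP2 and 46.4 in NP3, against 60.7 in P1, 55.7 in P2 and 73.6 in P3. The gap between the highest non-pregnant and the lowest pregnant library was narrow, 55.3 against 55.7 FPKM. The means were 50.2 ± 4.55 and 63.3 ± 9.26 FPKM (SD, n = 3 each), a ratio of 1.26, and the log2 difference was 0.32 ± 0.12 (SE), between 0.21 and 0.41 with each library left out and 0.16 with array weights. Over all genes tested the groups did not overlap with the pregnant libraries higher in 9.9% and lower in 12.2%, and 1 of 10 members is given beside that without a reading. Other genes of fast response in the fixed list, Sik1, a kinase induced by cyclic AMP, and Fosb, an immediate-early transcription factor, stood at 57.7 ± 6.13 and 76.3 ± 6.95 FPKM and at 195 ± 25.4 and 240.4 ± 23.0 FPKM (SD, n = 3 each), without overlap between groups. Neither passed (over the 12 immediate-early and cyclic AMP genes 0 passed, 8 lay above 0 and the median was 0.09; limma adjusted p of 0.295 and 0.362), and their part in the level of Per1 was not tested. The median of that list turned to -0.01 without NP2 and to -0.04 with array weights, and it was 0.17 without NP3, 0.16 without P2 and 0.04 without P3.

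The REV-ERB genes varied least over the libraries. Nr1d1 (chromosome 11, 98767932 to 98775333) stood at 175 FPKM in NP1, 141 in NP2 and 137.6 in NP3, against 158 in P1, 142 in P2 and 137.6 in P3, a span of 1.27-fold over the 6. It was the only member highest in NP1 and the only one with a lower mean log2 level in pregnancy, by -0.04 ± 0.12 (SE), a sign that turned (0.06) without that library. With array weights, which weigh libraries by their spread, it was -0.20. Nr1d2 stood at 32.9 FPKM in NP1, 32.7 in NP2 and 25.9 in NP3, against 27.7 in P1, 30.9 in P2 and 36.2 in P3. Its log2 difference was 0.05 ± 0.13 (SE), and it was -0.06 without NP3, -0.05 without P3 and -0.09 with array weights. The exons of Nr1d1 share 263 bases, 8.55% of its exon length, with Thra, a thyroid hormone receptor gene on the opposite strand. The strand setting of the counting is not given in the sources used here, so fragments of the pair there may be mixed. Thra stood between 28.7 and 40.4 FPKM.

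Among the PAR factors, Dbp spanned the widest range of all members. It stood at 42.2 FPKM in NP1, 91.2 in NP2 and 18.5 in NP3, against 48.8 in P1, 59.96 in P2 and 85.8 in P3, a 4.93-fold range within the non-pregnant group and a 1.76-fold range within the pregnant one. The highest and the lowest of the 6 values were both non-pregnant. The means were 50.6 ± 37.1 and 64.8 ± 19.0 FPKM (SD, n = 3 each), a ratio of 1.28, and the log2 difference was 0.59 ± 0.50 (SE). That difference was 0.02 without NP3, 1.14 without NP2 and 0.37 without P3. Dbp (chromosome 7, 45705088 to 45710203) shares 539 exon bases, 18.0% of its exon length, with Sphk2, a sphingosine kinase gene on the opposite strand. Sphk2 stood between 16.1 and 26.5 FPKM and was highest in P1. Its lowest library was NP3, as for Dbp.

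Tef and Hlf, the relatives of Dbp, repeated its high libraries over a smaller range. Tef stood at 25.5 FPKM in NP1, 39.6 in NP2 and 22.8 in NP3, against 29.7 in P1, 29.5 in P2 and 46.1 in P3. Hlf stood at 2.82 FPKM in NP1, 5.92 in NP2 and 3.36 in NP3, against 3.08 in P1, 3.57 in P2 and 7.03 in P3. Both were highest in P3 and next in NP2, and the groups overlapped. The log2 difference was 0.26 ± 0.23 for Tef and 0.13 ± 0.29 for Hlf (SE). For Tef it fell to 0.06 without P3 and 0.11 without NP3. For Hlf it turned to -0.17 without P3 and to -0.05 without NP1. Tef shares 193 exon bases (2.45%) with an antisense gene model.

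The remaining repressors were the least abundant members. Ciart, with the 3 E-boxes (chromosome 3, 95878503 to 95882251), stood at 2.01 FPKM in NP1, 3.26 in NP2 and 1.46 in NP3, against 3.15 in P1, 3.09 in P2 and 3.51 in P3, from 116 to 223 fragments a library. The pregnant libraries lay within 1.14-fold of each other and the non-pregnant ones within 2.24-fold, and NP2 alone reached into the pregnant range. The means were 2.24 ± 0.925 and 3.25 ± 0.227 FPKM (SD, n = 3 each), a ratio of 1.45, and the log2 difference was 0.43 ± 0.19 (SE), 0.25 without NP3 and 0.64 without NP2. Bhlhe41 stood at 0.577 FPKM in NP1, 1.17 in NP2 and 0.410 in NP3, against 0.447 in P1, 0.934 in P2 and 1.63 in P3. Its lowest value, in NP3, had an exact Poisson 95% interval from 0.33241 to 0.50006 FPKM, and its highest, in P3, one from 1.44 to 1.83 FPKM, which cover counting error only. Its log2 difference was 0.20 ± 0.25 (SE), and -0.01 without P3. A gene model on the opposite strand, Gm43909, shares 1280 of its exon bases.

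**Figure D2:**
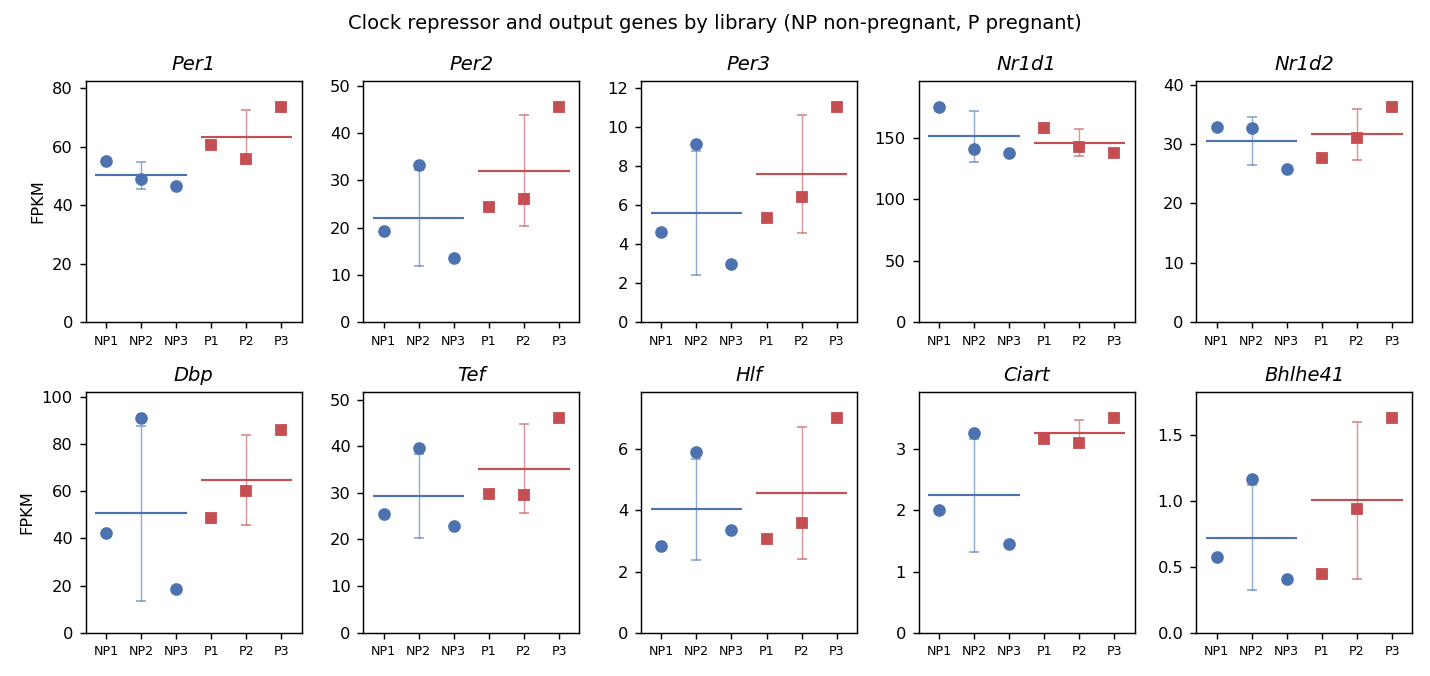
FPKM of each member in the 6 libraries (circles non-pregnant, NP1 to NP3; squares pregnant, P1 to P3), with the group mean (horizontal line) and SD (error bar, n = 3) on axes that start at 0. NP2 and P3 are the 2 highest points in 7 of the 10 panels, and Per1 alone shows groups that do not overlap.

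Across the 10 members the libraries of a group differed widely. In 9 of the 10, all but Per1, the range over the non-pregnant libraries on the log2 scale exceeded the difference between group means. In 9 of 10, all but Ciart, so did the range over the pregnant ones. A range over 3 libraries often exceeds a difference of means. The share over all tested genes was not computed, so these counts carry no reading. The median SD of a member was 0.40 among non-pregnant and 0.38 among pregnant libraries on that scale, where the medians over all 11412 tested genes were 0.14 and 0.08. The 2 highest libraries of the 6 were NP2 and P3 in 7 members, all but Per1, Nr1d1 and Nr1d2, as they were in 6.71% of all tested genes. NP3 was the lowest of the 6 in 9 members, all but Hlf, and in 28.5% of all tested genes. Averaged over the members, the log2 deviation from the group mean was -0.04 in NP1, 0.42 in NP2 and -0.38 in NP3, then -0.22 in P1, -0.12 in P2 and 0.34 in P3. Such shares and spreads are descriptions, since the members were chosen by their FPKM values in these 6 libraries, with earlier results known.

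Among the partners, Arntl, Npas2, Clock, Nfil3 and Cry1 ran the other way across the same libraries. Arntl stood at 8.47 FPKM in NP1, 3.61 in NP2 and 18.3 in NP3, against 7.06 in P1, 4.83 in P2 and 1.84 in P3. Npas2, a relative of Clock that also pairs with BMAL1, stood at 9.15 FPKM in NP1, 3.13 in NP2 and 16.016 in NP3, against 7.70 in P1, 5.44 in P2 and 1.94 in P3. Both were highest in NP3 and lowest in P3, where Dbp was lowest and second highest. The ratio of Dbp to Arntl within a library was 4.98 in NP1, 25.3 in NP2 and 1.01 in NP3, then 6.91 in P1, 12.4 in P2 and 46.5 in P3. Nfil3, which represses through the D-boxes that Dbp activates, stood at 26.5 FPKM in NP1, 16.7 in NP2 and 36.2 in NP3, against 26.2 in P1, 23.1 in P2 and 20.5 in P3. Cry1, the cryptochrome gene of later phase, stood at 10.7 FPKM in NP1, 6.49 in NP2 and 13.8 in NP3, against 9.59 in P1, 8.14 in P2 and 7.38 in P3, and Clock ranged only from 4.95 to 8.41 FPKM. Arntl, Npas2, Clock, Nfil3, Cry1 and Rora shared the order NP3 over NP1 over NP2 and P1 over P2 over P3, found in 5.77% of all tested genes and in 0 of the 10 members. The promoter of Arntl held the element of the REV-ERBs and RORs 28 bases after one of its starts, found in 0.435% of promoters. That of Cry1 held an E-box and an E'-box and that of Cry2 an E'-box, found in 7.15% (E-box) and 4.68% (E'-box) of promoters. The E-box and E'-box were thus not particular to the members. Cry2 (14.0 to 18.4 FPKM) and Bhlhe40 (56.6 to 68.4 FPKM), the more abundant relative of Bhlhe41, spanned little. None of these partners passed between groups (limma adjusted p from 0.470 for Arntl to 0.937 for Bhlhe40), with log2 differences of -0.88 ± 0.54 for Arntl and -0.70 ± 0.55 for Npas2 (SE). Leaving out NP3 or P3 reduced the Arntl difference to -0.37 or -0.46, and leaving out NP2 raised its size to -1.40.

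**Figure D3:**
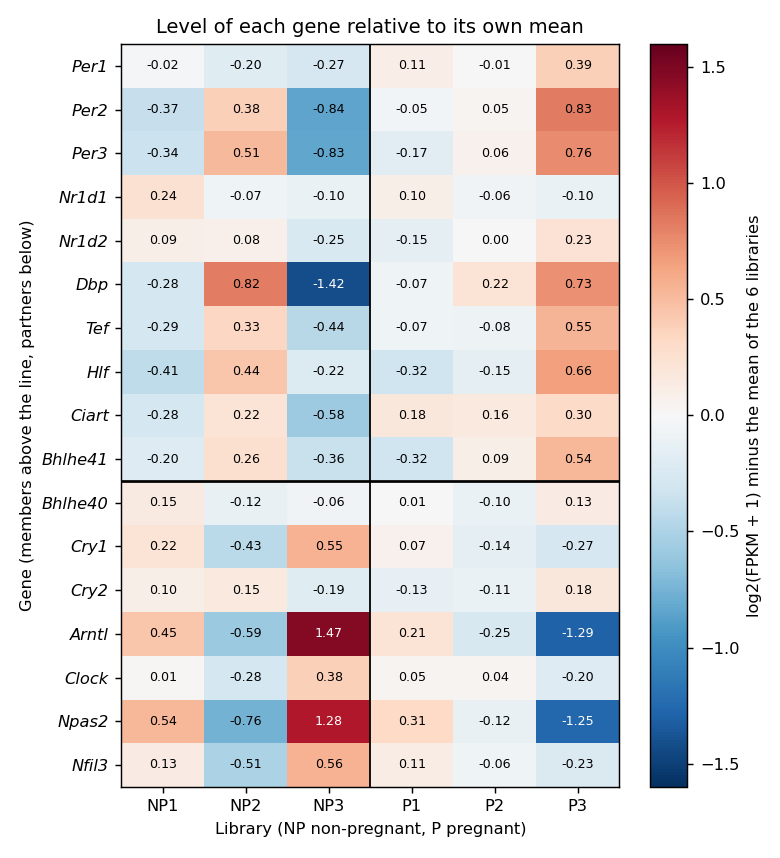
Log2(FPKM + 1) of each gene minus its own mean over the 6 libraries, members above the horizontal line and partners below, libraries in columns. Dbp runs from -1.42 in NP3 to 0.82 in NP2, and Arntl from 1.47 in NP3 to -1.29 in P3.

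Endothelial transcripts moved with 1 of the libraries in which Dbp was high. All 7 endothelial markers were highest in NP2, where they summed to 195.7 FPKM, against 13.5 to 27.3 FPKM in the other two non-pregnant and 15.1 to 22.0 FPKM in the pregnant libraries. In P3 they summed to 17.2 FPKM, while Dbp, Per2, Per3 and Tef stood at 85.8, 45.6, 11.04 and 46.1 FPKM there. Kupffer cell markers, those of the liver macrophages, summed to between 1.94 and 7.75 FPKM in non-pregnant and between 34.9 and 94.6 FPKM in pregnant libraries, with all 9 detected and P3 the lowest pregnant one. Hepatocyte markers summed to between 2394 and 2967 FPKM in non-pregnant and between 2392 and 2714 FPKM in pregnant libraries, nearly all of it Alb and Ttr, and 4 of the 7 were highest in NP2. Markers of stellate cells and fibroblasts summed to between 8.95 and 14.5 FPKM over 7, and 6 of the 7 were highest in NP2. Markers of mesothelium (5.96 to 13.4 FPKM summed over 4) and lymphocytes (1.53 to 2.92 FPKM over 6) were low, and neutrophil markers summed to at most 0.603 FPKM over 4 with Ly6g at 0 throughout. The part of the cells behind any of these marker lists, endothelial ones included, in the member levels was not tested. In sorted cell populations fewer cells of a type and less RNA per cell cannot be told apart.

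**Figure D4:**
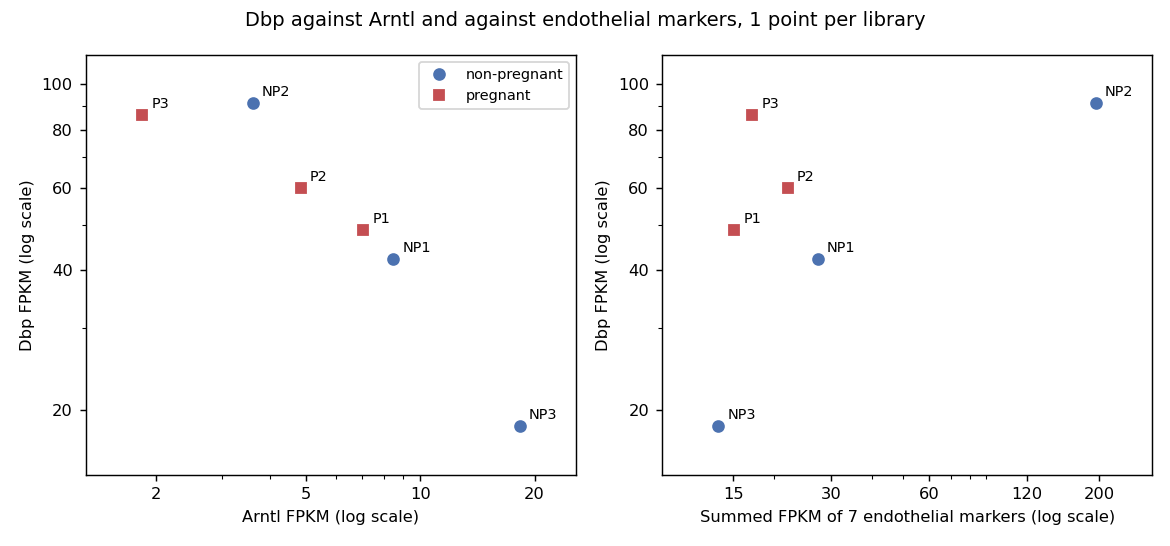
Dbp against Arntl (left) and against the summed FPKM of 7 endothelial markers (right), log scales on all axes, 1 point a library (circles non-pregnant, squares pregnant). Dbp is near its highest in NP2 and P3, of which NP2 alone has a high endothelial sum (195.7 FPKM).

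Between the groups the members as a set were described by their counts. The mean log2 level was higher in pregnancy in 9 of the 10 members, all but Nr1d1, and in 44.8% of all tested genes, with a median difference of 0.29 over the 10 and of -0.02 over all tested genes. Of the 9 members above the filter 0 passed at an adjusted p of 0.05 (limma, Benjamini-Hochberg over all tested genes), 1 (Per1) lay under an unadjusted p of 0.05, and limma-voom on the recovered fragments called 0. Over all tested genes 10, or 0.0876%, passed (0.0613% higher and 0.0263% lower in pregnancy), 1 was called by limma-voom, and 13.4% lay under the unadjusted threshold. These counts carry no reading about the members, which were chosen with this comparison known. The median over the 9 was 0.32, and it was 0.11 without NP3, 0.17 without P3 and 0.49 without NP2.

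**Figure D5:**
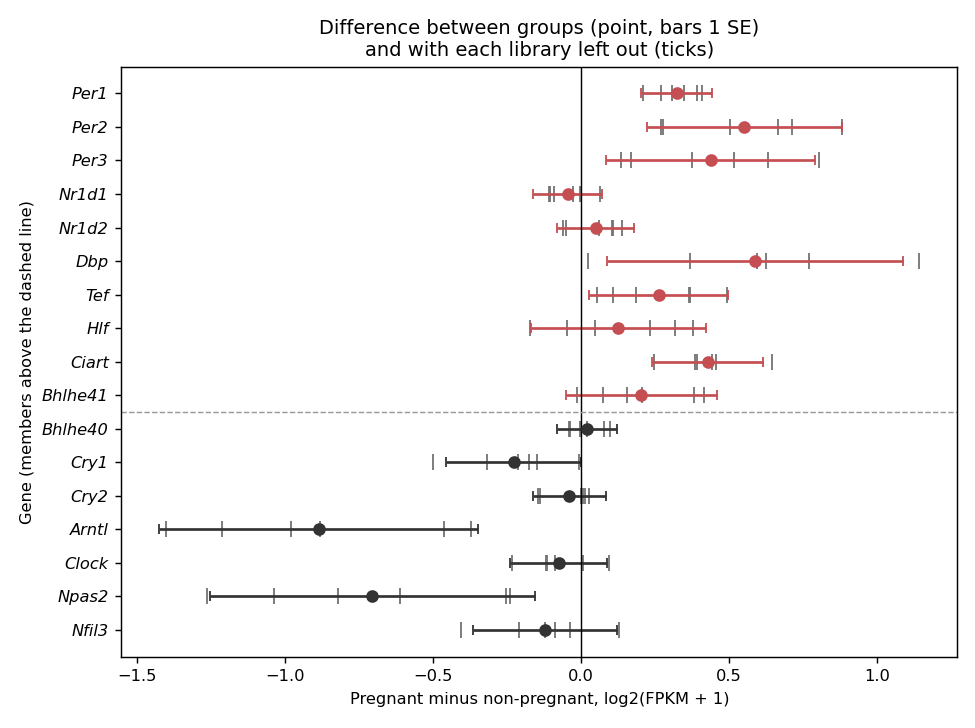
Pregnant minus non-pregnant difference in mean log2(FPKM + 1) for the members (red) and partners (black), with 1 SE as bars, and the difference with each library left out in turn as grey ticks. Dbp spans 0.02 to 1.14 and Arntl -1.40 to -0.37 over the ticks, and those of Per1 stay between 0.21 and 0.41.

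Other genes of the pathway were taken from 8 lists, of which 66 genes were tested beside the members. None of the 66 rose or fell (limma, adjusted over all tested genes), 6 lay under an unadjusted p of 0.05, and limma-voom called 0. Array weights called 1 gene that cycles with Dbp or Per and 2 glucocorticoid-responsive genes. The nearest was Wee1, a cell cycle kinase gene known as a target of the clock through E-boxes, at 19.9 FPKM in NP1, 18.6 in NP2 and 18.2 in NP3, against 27.9 in P1, 25.1 in P2 and 30.4 in P3. Its groups did not overlap (log2 difference 0.53 ± 0.09, SE; limma adjusted p = 0.147), and it was not high in NP2 as Dbp was. Of the 8 genes that cycle with Dbp or Per in many tissues 6 lay above 0, with a median of 0.15 (0.08 without NP3). Tspan4, a tetraspanin gene of that list, stood at 13.0 FPKM in NP1, 20.4 in NP2 and 11.044 in NP3, against 14.1 in P1, 16.984 in P2 and 19.2 in P3, with the same high libraries as Per2 and Per3. Usp2, a deubiquitinase gene, was at 10.8 ± 1.18 and 12.3 ± 2.02 FPKM, and Lonrf3 at 7.92 ± 1.75 and 9.66 ± 0.368 FPKM (SD, n = 3 each). The 6 tested genes of the activator list all lay below 0, with a median of -0.25. That median turned to 0.06 without NP3, and it was -0.15 without P3, -0.51 without NP2 and -0.10 with array weights. The list of other clock repressors (Cry1, Cry2 and Bhlhe40) had a median of -0.04, which turned to 0.02 without P1 and 0.01 without P2. The 15 genes listed as regulators of PER and CRY proteins had a median of -0.01, with 6 above 0. Among them Gsk3b, a kinase of clock proteins, stood at 28.5 ± 0.998 and 31.5 ± 0.492 FPKM (SD, n = 3 each; limma adjusted p = 0.398).

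Known targets of the PAR factors in liver were mostly at low levels here. A mean of 1 FPKM was reached by 3 of 9, and the other 6, among them Cyp7a1 and Cyp2b10, did not reach it. The 3 had a median log2 difference of -0.30, with 0 past the test, and of -0.05 without NP2, -0.16 without NP3 and -0.18 without P1. Por, the electron donor of cytochromes P450, stood at 45.0 FPKM in NP1, 44.2 in NP2 and 60.2 in NP3, against 38.6 in P1, 39.8 in P2 and 41.2 in P3 (limma adjusted p = 0.362). It was highest in NP3, where Dbp was lowest, and the other tested targets were not. Alas1, the first enzyme of haem synthesis, was at 10.8 ± 0.382 and 11.8 ± 0.650 FPKM, and Ces1g, a carboxylesterase gene, at 44.9 ± 20.3 and 33.1 ± 10.1 FPKM (SD, n = 3 each). Alas1 was lowest in NP3 (10.4 FPKM) and highest in P3 (12.5 FPKM). Ces1g was highest in NP2 (67.8 FPKM), as Dbp was, and lowest in P1 (24.1 FPKM). Of the 7 hepatocyte markers 4 were also highest in NP2, though their sum was highest in NP3. The part of hepatocyte RNA in the level of Ces1g was not tested.

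Genes that answer to glucocorticoids, hormones known to reset peripheral clocks and to induce Per1, were often highest in the library in which most members were lowest. NP3 held the highest value of 10 of the 12 such genes, and of 35.8% of the tested genes. Fkbp5, a chaperone of the glucocorticoid receptor, stood at 9.65 FPKM in NP1, 8.74 in NP2 and 28.7 in NP3, against 8.95 in P1, 6.93 in P2 and 6.81 in P3. Klf9, a transcription factor gene, stood at 30.6 FPKM in NP1, 25.6 in NP2 and 53.8 in NP3, against 23.8 in P1, 24.3 in P2 and 21.3 in P3, and Per1 was lowest, 46.4 FPKM, in that same library. Nfkbia went the other way, as the 1 gene of the list above 0. It stood at 299.9 FPKM in NP1, 304.5 in NP2 and 264.2 in NP3, its lowest library. The pregnant libraries lay at 366.3 FPKM in P1, 343.6 in P2 and 339.1 in P3, without overlap (limma adjusted p = 0.334). The list had a median log2 difference of -0.19 with 11 of 12 below 0 and 0 past the test. That median was -0.06 without NP3, -0.43 without NP1 and -0.45 without NP2. The part of these genes in the levels of the members was not tested.

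The genes most like Dbp over the 6 libraries were sought among the 308 genes other than the members whose mean reached 5 FPKM and whose log2 range reached 1. Pearson's r with Dbp on the log2 scale served as the measure of likeness, a description over 6 libraries that share 2 groups. The nearest were Sftpd (0.974), a collectin gene, Pxdn (0.964), Rap1gap (0.961), Ccnd2 (0.958), which encodes cyclin D2, and Ecscr (0.957), an endothelial surface gene. The most opposite were Nek7 (-0.980), Cdkn1a (-0.979), the cell cycle inhibitor p21, Zbtb16 (-0.978), Hr (-0.977) and N4bp2l1 (-0.975). Sftpd stood at 28.6 FPKM in NP1, 42.4 in NP2 and 17.4 in NP3, against 29.0 in P1, 28.5 in P2 and 42.3 in P3, high in the same 2 libraries as Dbp. Cdkn1a stood at 43.0 FPKM in NP1, 24.4 in NP2 and 85.1 in NP3, against 32.6 in P1, 27.6 in P2 and 24.4 in P3. By the same measure Per3 (0.958), Per2 (0.939), Ciart (0.922), Tef (0.892), Bhlhe41 (0.830) and Nr1d2 (0.804) stood nearest to Dbp among the members. Hlf (0.698), Per1 (0.523) and Nr1d1 (-0.12) stood farther off.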

How the data were processed

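The authors deposited 1 table of FPKM values with a column for each library. Listed in the submitters' processing notes, without roles, are STAR 2.7.9a, HTSeq 0.13.5, cutadapt 3.4, DESeq2 1.30.1 and mm10. Since FPKM is relative to library depth, very abundant genes can shift the values of others. Gene positions and exon lengths came from GENCODE vM21. FPKM times exon length was a whole multiple of 1 step per library, within a tolerance of 0.01, for 98.5% of values above 0, which gave the recovered fragments. Values were fitted as log2(FPKM + 1), which understates changes of low genes, for the 11412 genes whose mean reached 1 FPKM (limma 3.58.1 in R 4.3.3, trended empirical Bayes, two-sided, Benjamini-Hochberg, threshold 0.05). The fit was tested on simulated data, with the same assumed dispersion for every gene and planted changes larger than any group difference of the members. That test says nothing about differences as small as those of the members. Differences are pregnant minus non-pregnant. Groups and numbers came from sample titles. Descriptions number non-pregnant library 3 as 4. The members, lists and tests were chosen with earlier results of these data known. Bhlhe40, mentioned in the selection rule but not in its list of names, was treated as a partner. Named were all members, 7 partners, up to 4 genes per list by smallest p (Rora and Mt2 fall outside this and were chosen after their values were seen), and the 5 genes most and least correlated with Dbp. Cell type markers were fixed lists. Python 3.11.15 with pandas 2.3.3, scipy 1.17.1 and matplotlib 3.10.9 served for the rest. Some genes of the lists are not reported here.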

Additional observations from a re-analysis of the deposited data

How the results depend on the processing

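The count of 10 changed genes was 0 with no filter on low values, 4 with a mean of at least 5 FPKM, 5 with robust empirical Bayes, 1301 with array weights, 1 with limma-voom on recovered fragments and between 0 and 133 with each library left out. The count was 133 without NP2 and 0 without NP1, NP3, P1 or P2. Where limma called 0, between 857 and 2258 genes lay under an unadjusted p of 0.05. Of the members 0 were called in every one of these settings except array weights, which called 1, Ciart, and 3 genes of the other lists. The replicate block, with the title numbers as a block, gave 13 changed genes and 0 members. Same-numbered libraries did not deviate together (correlations of 0.07, 0.02 and -0.14 for numbers 1, 2 and 3), so the numbers were not taken as pairs. The median difference of the 9 tested members lay between 0.11 and 0.49 with each library left out and between 0.27 and 0.34 under the other alternatives. Per1, Per2, Per3, Dbp, Tef and Ciart kept a positive difference in all alternatives run, while Nr1d1, Nr1d2, Hlf and Bhlhe41 changed sign in 1 to 3 of them. Members with an E-box alone numbered 4, against 5 with the E'-box. With 3 libraries a group, and Bhlhe41 and Ciart resting on at most 277 fragments, small differences could not be resolved.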

Other observations

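Genes that respond to temperature, another known cue of peripheral clocks, were measured as well. Of 8 such genes 0 passed between groups (limma; 0 under an unadjusted p of 0.05 and 0 by limma-voom), with a median log2 difference of -0.07 and 7 below 0. That median was -0.03 without NP3, -0.04 without P2, -0.11 without P3 and -0.13 without NP2. Cirbp, the cold-inducible RNA-binding protein gene, stood at 43.9 FPKM in NP1, 39.5 in NP2 and 64.2 in NP3, against 35.019 in P1, 40.4 in P2 and 38.2 in P3, so that NP3 stood highest here as it did for Arntl. Mt2, a metallothionein gene of the glucocorticoid list chosen after its values were seen, stood at 16.9 FPKM in NP1, 16.9 in NP2 and 79.1 in NP3, against 21.963 in P1, 22.2 in P2 and 33.5 in P3.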
